A study of Mus musculus with 2 samples.

Results

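In 9 protein-coding genes, the transcript that held most of the gene's signal was a different one in each of the 2 libraries of this series. The 8 described here are Mtmr9, Ssh2, Akap13, Bcar3, St3gal6, Slfn5, Cox5b and Mrpl38, and the counts cover all 9. They were chosen from transcript abundance in TPM, a level divided by transcript length and scaled to the same total in each library. For each gene with 2 or more listed transcripts, the transcript with the highest TPM was taken as the main transcript of library W1 and, separately, of library W2. A gene was kept where these differed, each reached 10 TPM in its own library, and each made up 70% or more of the gene's summed TPM there. Of 21939 protein-coding genes in the tables, 17035 had 2 or more listed transcripts, 5382 of these were above 0 in both libraries, and 1556 had main transcripts at 10 TPM or more in both. The main transcript differed in 58 of the 1556 (3.73%), and 9 (0.578%) also met the share limit. Because the rule used the TPM of both libraries, these counts and the levels that follow are descriptions, and no test was applied.

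Libraries W1 and W2 both carry the labels wild type, C57BL/6 and 8 weeks, and both are labelled as mammary basal cells, the outer layer of the gland's epithelium, sorted by flow cytometry and profiled by Smart-seq II. The series describes Pd-l1 positive and negative basal cells, but beyond their titles the labels do not set W1 and W2 apart, so neither was placed in a class. No source used here says which antibodies were used, how many mice were taken or whether they were pooled. Neither library has a replicate. The reads recovered from the value of a single read numbered 3055827 for library W1 and 3800025 for library W2. Intervals are 95% Clopper-Pearson (exact), computed from reads, and take in no error other than that of counting, since the protocol names no molecular identifiers.

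Marker genes were set against the label. The 12 basal epithelial markers summed to 155 TPM in W1 and 40103 TPM in W2, with 5 markers at 0 in W1 and 2, Itgb4 and Trp63, at 0 in W2. Of the sum in W1, 140 TPM came from Itga6, which stood at 170 TPM in W2. The 12 endothelial markers summed to 5011 TPM in library W1, where 0 were at 0, and to 8.22 TPM in library W2, where 9 were at 0. The 13 luminal markers summed to 13.8 and 4850 TPM, the 8 fibroblast markers to 3.19 and 206 TPM, and the 8 leukocyte markers to 80.6 and 0.267 TPM in libraries W1 and W2. The markers of library W1 go against its label: Krt5, a keratin that defines basal cells, had 0 reads there and 3923 reads in library W2. The marker sums differ between the same 2 libraries as the transcripts described here, and their part in the results was not tested. Each member needs both libraries, so no value could be given without library W1. In such bulk libraries, fewer cells of a type and less RNA per cell cannot be told apart.

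A gene can give rise to several transcripts through alternative starts, alternative splice sites and alternative 3' ends. A transcript that keeps an intron is annotated as a retained intron and is generally not translated, and a processed transcript is one without an annotated open reading frame. Alternative last exons or 3' ends can change a protein's end or only its untranslated region, which affects the stability and location of the messenger RNA. Epithelial cells are known for a splicing programme of their own, driven in part by the factors Esrp1 and Esrp2. A read can be given to a single transcript where it covers sequence that no other transcript has. That sequence was measured as own 50-mers, stretches of 50 bases found on either strand of no other listed transcript.

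The sequences below show the places where main transcripts of these genes depart from the coding exons, since a read across them can tell these transcripts from the others. All are from GENCODE M21 transcripts on GRCm38, written 5' to 3'. For Mtmr9, lower case marks the 25 bases that both main transcripts share and capitals mark the coding bases found only in the named one. Both lines end within the coding sequence (chromosome 14, minus strand, chr14:63524070-63524144 for Mtmr9-201, and from chr14:63523271-63524144 across a splice junction for Mtmr9-202).
Mtmr9-202: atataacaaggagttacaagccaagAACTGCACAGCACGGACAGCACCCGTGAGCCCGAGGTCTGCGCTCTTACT
Mtmr9-201: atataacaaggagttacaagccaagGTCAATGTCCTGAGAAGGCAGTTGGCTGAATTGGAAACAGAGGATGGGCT
After the same 25 bases, Mtmr9-202 joined a downstream exon, and Mtmr9-201 read on into bases that begin with GT, the letters of a 5' splice site.

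In the transcripts that follow, 20 exon bases are in lower case and 60 bases of intron are in capitals. In Mrpl38-204 (chr11:116138382-116138461, minus strand) the exon runs on into the intron. Mrpl38-202 (chr11:116134486-116134565, minus strand) and Bcar3-206 (chr3:122524864-122524943, plus strand) show the other edge, from intron into exon.
Mrpl38-204: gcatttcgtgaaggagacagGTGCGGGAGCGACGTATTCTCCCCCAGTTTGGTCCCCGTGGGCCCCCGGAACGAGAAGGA
Mrpl38-202: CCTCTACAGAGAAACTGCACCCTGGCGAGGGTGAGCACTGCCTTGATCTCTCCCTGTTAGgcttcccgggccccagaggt
Bcar3-206: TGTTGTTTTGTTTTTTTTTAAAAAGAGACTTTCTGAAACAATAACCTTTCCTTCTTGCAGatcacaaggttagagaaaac
Cox5b-202 keeps the whole of intron 1, and both of its edges are shown (chr1:36691670-36691749 and chr1:36692151-36692230, plus strand).
Cox5b-202 exon to intron: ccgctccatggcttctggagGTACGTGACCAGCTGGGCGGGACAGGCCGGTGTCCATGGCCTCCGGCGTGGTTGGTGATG
Cox5b-202 intron to exon: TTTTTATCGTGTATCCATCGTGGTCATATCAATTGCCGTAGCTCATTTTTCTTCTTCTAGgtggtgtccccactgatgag
Over the main transcripts, 5 of 5 edges from exon to intron began with GT. Of 5 edges into an exon, 4 followed AG, the letters of a 3' splice site, and the remaining edge, in Slfn5-204, lies at the start of the coding transcripts and not at an intron.

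Most of the main transcripts of these genes were not coding. Of the 18 main transcripts, 9 were annotated as retained introns, 2 as processed transcripts and 7 as protein coding. In library W1 the main transcript was coding in 5 genes and a retained intron in 4. In library W2 it was coding in 2, a retained intron in 5 and a processed transcript in 2. At least 1 of the pair was non-coding in 8 of the 9 genes, and both were non-coding in 3, among them Akap13 and Mrpl38. For comparison, at least 1 of the pair was non-coding in 36 of the 49 genes with different main transcripts under the share limit (73.5%). Of the 1498 genes with the same main transcript in both libraries, that transcript was non-coding in 98 (6.54%). Those genes have only 1 main transcript to count, so the like measure in the members is 11 of 18 main transcripts. Over all protein-coding genes, retained introns held 3.24% of TPM in W1 and 1.43% in W2.

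**Figure D1:**
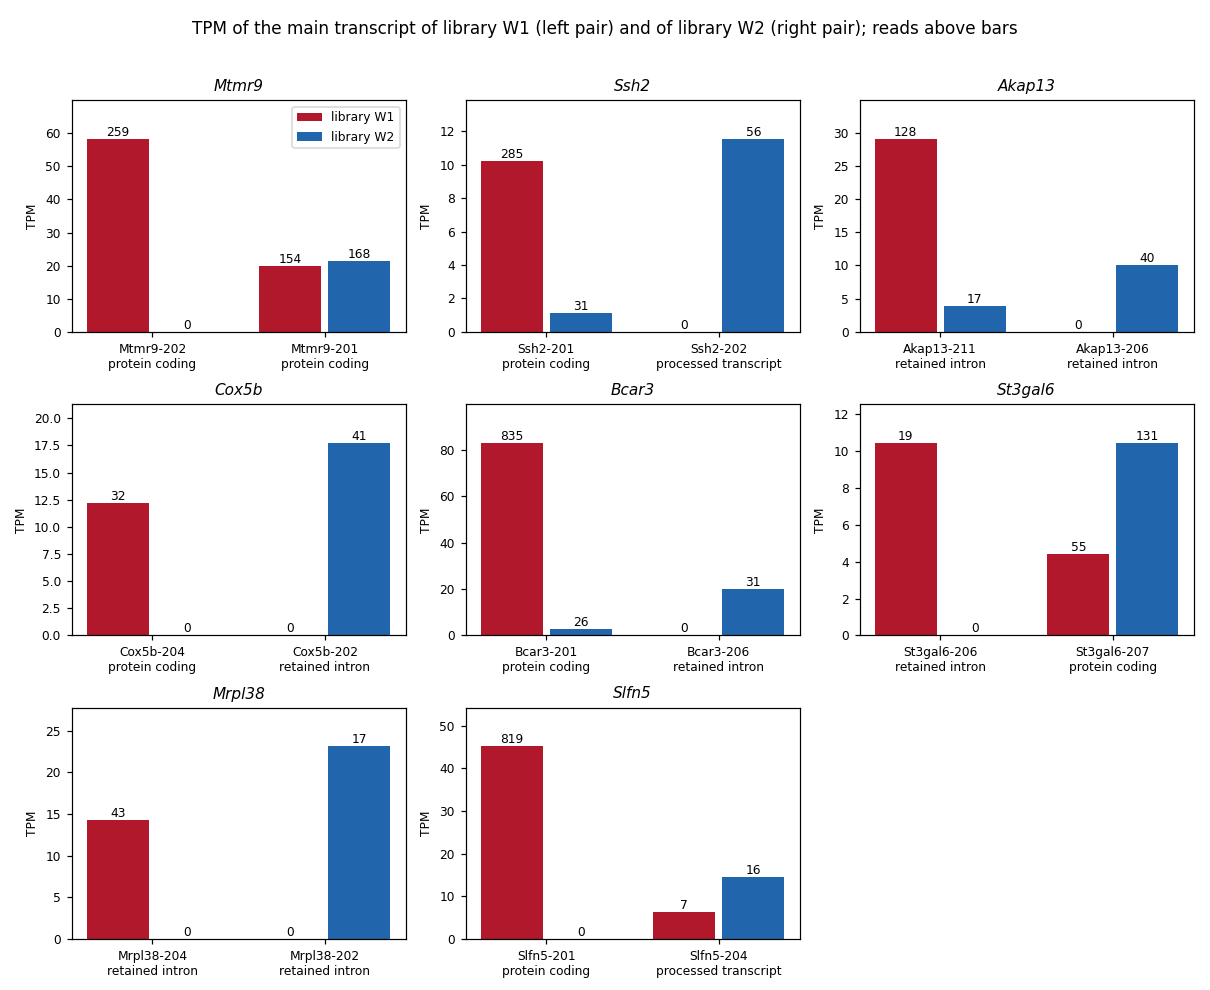
TPM of both main transcripts of the 8 genes described, in W1 (red) and W2 (blue), each a single library without an error estimate, with the recovered reads above the bars. In Cox5b and Mrpl38 each transcript was read in 1 library only, and in the other genes 1 of the pair was read in both.

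Mtmr9 was the member with the most reads on the scarcer of its main transcripts, and the only one whose main transcripts both code for protein. It encodes a myotubularin-related protein without catalytic activity of its own, which binds active phosphoinositide phosphatases of the family. The gene (ENSMUSG00000035078.6, chromosome 14, 63519651 to 63543982, minus strand) has 2 listed transcripts. Mtmr9-202 stood at 58.3 TPM from 259 reads in W1 and had 0 reads in W2. With a floor of 3 reads per library, it was at least 86.9-fold higher in W1. Here and below, such a value sets a limit on the 0 alone. The reads of the other library are taken as exact, so the value is not the lower end of an interval. Mtmr9-201 stood at 19.8 TPM (154 reads) in W1 and 21.4 TPM (168 reads) in W2, a ratio of 0.923 (0.737 to 1.16). The interval of this transcript, which carries the coding sequence of 1635 bases, takes in 1. Since the rule used this gene's TPM in both libraries, interval and floor describe counting error and are no test. Mtmr9-202 made up 74.7% of the gene's TPM in W1 and Mtmr9-201 made up 100% in W2. Mtmr9-202 starts 15823 bases downstream of Mtmr9-201, is annotated as incomplete with 416 coding bases, and ends 3826 bases downstream of Mtmr9-201. Of its 1168 own 50-mers, 1027 lie after the coding sequence, so most of the sequence that names it is downstream of its coding part.

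Ssh2, Akap13 and Bcar3 act in signalling to the cytoskeleton. Ssh2 encodes a slingshot phosphatase that activates the actin-severing protein cofilin (ENSMUSG00000037926.15, chromosome 11, 77216287 to 77460220, plus strand, 7 listed transcripts). Ssh2-201, the coding transcript, stood at 10.2 TPM (285 reads) in W1 and 1.11 TPM (31 reads) in W2, a 9.26-fold difference (6.38 to 13.9). Ssh2-202, a processed transcript, had 0 reads in W1 and stood at 11.5 TPM (56 reads) in W2, at least 18.5-fold higher there. Its start lies 131993 bases downstream of that of Ssh2-201, and its last exon lies in intron 5 of 14 of the coding transcript. The gene's TPM sum was 10.3 in W1 and 12.6 in W2, but its reads numbered 286 in W1 and 87 in W2. TPM divides by length, and Ssh2-201 has 9178 bases and Ssh2-202 has 1591. Of the own 50-mers of Ssh2-201, 99.0% lie after the coding sequence, and the reads do not tell which start was used.

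Akap13 encodes an anchoring protein for protein kinase A that also activates the small GTPase RhoA (ENSMUSG00000066406.15, chromosome 7, 75455534 to 75754609, plus strand, 16 listed transcripts). Its main transcripts share no exon base. Akap13-211, whose own bases lie in intron 7 of the 37 introns of the longest coding transcript, stood at 29.0 TPM (128 reads) in W1 and 3.83 TPM (17 reads) in W2. That is 7.58-fold higher in W1 (4.55 to 13.4). Akap13-206, whose own bases lie in introns 1 and 4, had 0 reads in W1 and stood at 10.1 TPM (40 reads) in W2, at least 13.2-fold higher there. Another 3 retained introns had reads in W1 only, Akap13-204 with 19 reads, Akap13-213 with 13 and Akap13-209 with 1. None of the 6 coding transcripts of Akap13 had a read in either library. They have only 0 to 145 own 50-mers each, so this does not show that coding RNA of the gene was absent. The own bases of both main transcripts are intronic with respect to the longest coding transcript.

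Bcar3 encodes an adaptor that binds the focal adhesion scaffold p130Cas (ENSMUSG00000028121.8, chromosome 3, 122294136 to 122530191, plus strand, 10 listed transcripts). The coding Bcar3-201 stood at 83.2 TPM (835 reads) in W1 and 2.57 TPM (26 reads) in W2, a 32.3-fold difference (21.9 to 49.8). Bcar3-206, a short retained intron of 509 bases, had 0 reads in W1 and stood at 19.97 TPM (31 reads) in W2, at least 10.3-fold higher there. In library W2 it made up 78.2% of TPM but 43.7% of reads (31.9 to 55.95), because TPM divides by length and Bcar3-201 is 3311 bases long. Another retained intron, Bcar3-202, had 14 reads in W2 and 0 in W1. The antisense gene Gm42836 overlaps 310 exon bases of Bcar3-201 and stood at 9.07 TPM in W1 and 40.98 TPM in W2. The library kit is named as stranded, but whether strand was kept through Smart-seq II or used in counting is not known here. Without strand, a read within that overlap cannot be given to 1 of the genes. The own 50-mers of Bcar3-201 number 926 whether 1 strand or both are searched.

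St3gal6 encodes a sialyltransferase that caps glycans with sialic acid, a step in making selectin ligands (ENSMUSG00000022747.17, chromosome 16, 58468125 to 58524243, minus strand, 15 listed transcripts). St3gal6-206, a retained intron in intron 3 of 10, stood at 10.5 TPM (19 reads) in W1 and had 0 reads in W2, at least 6.38-fold higher in W1. The coding St3gal6-207 stood at 4.40 TPM (55 reads) in W1 and 10.4 TPM (131 reads) in W2, a ratio of 0.423 (0.303 to 0.583). By reads, St3gal6-206 held 25.7% of the gene in W1 (16.2 to 37.2), so the coding transcript led in both libraries on that scale. St3gal6-207 runs into Dcbld2, a gene on the opposite strand, over 1603 exon bases. It has 141 own 50-mers if both strands are searched and 1695 if 1 strand is, and Dcbld2 stood at 7.14 TPM in W1 and 6.60 TPM in W2.

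Slfn5 belongs to the Schlafen family, whose members respond to type I interferon (ENSMUSG00000054404.13, chromosome 11, 82951349 to 82964840, plus strand, 4 listed transcripts). The coding Slfn5-201 stood at 45.2 TPM (819 reads) in W1 and had 0 reads in W2, at least 275-fold higher in W1. Slfn5-204, a processed transcript of 360 bases whose own bases lie upstream of the coding transcripts, stood at 6.42 TPM (7 reads) in W1 and 14.6 TPM (16 reads) in W2. The ratio of this short transcript was 0.440 (0.153 to 1.13), an interval that takes in 1. The rule used the TPM of this gene in both libraries, so interval and floor describe counting error and are no test. The antisense gene Slfn5os overlaps 559 exon bases of Slfn5-201 and stood at 129 TPM (219 reads) in W1 with 0 reads in W2. Slfn5-201 has 2757 own 50-mers if both strands are searched and 2777 if 1 strand is, so the overlap takes little of the sequence that names it.

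Cox5b and Mrpl38 serve the mitochondrion and had the fewest reads in all. Cox5b encodes a subunit of cytochrome c oxidase (ENSMUSG00000061518.11, chromosome 1, 36691449 to 36693681, plus strand, 6 listed transcripts). Cox5b-204, a coding transcript, stood at 12.2 TPM (32 reads) in W1 and had 0 reads in W2. Its 295 own 50-mers lie without exception in the extended 3' end after the coding sequence. Cox5b-202, which keeps the 521 bases of intron 1, had 0 reads in W1 and stood at 17.8 TPM (41 reads) in W2. The differences were at least 10.7-fold toward W1 for Cox5b-204 and at least 13.6-fold toward W2 for Cox5b-202. Cox5b-201 and Cox5b-206, also coding, had 0 reads in both libraries and have only 83 and 47 own 50-mers. Their 0 reads do not show that coding RNA of Cox5b was absent from library W2.

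Mrpl38 encodes a protein of the large subunit of the mitochondrial ribosome (ENSMUSG00000020775.13, chromosome 11, 116131817 to 116138868, minus strand, 6 listed transcripts). Mrpl38-204, a retained intron near the start of the gene in intron 2 of 8, stood at 14.3 TPM (43 reads) in W1 and had 0 reads in W2. Mrpl38-202, a retained intron of 241 bases in intron 4, had 0 reads in W1 and stood at 23.1 TPM (17 reads) in W2. The differences were at least 14.4-fold toward W1 and at least 5.63-fold toward W2, with the 43 and 17 reads taken as exact. The main transcripts share no exon base, and Mrpl38-201, the 1 coding transcript, has 7 own 50-mers and had 0 reads in both libraries. Cox5b and Mrpl38 were the only members in which each main transcript was at 0 in the other library.

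**Figure D2:**
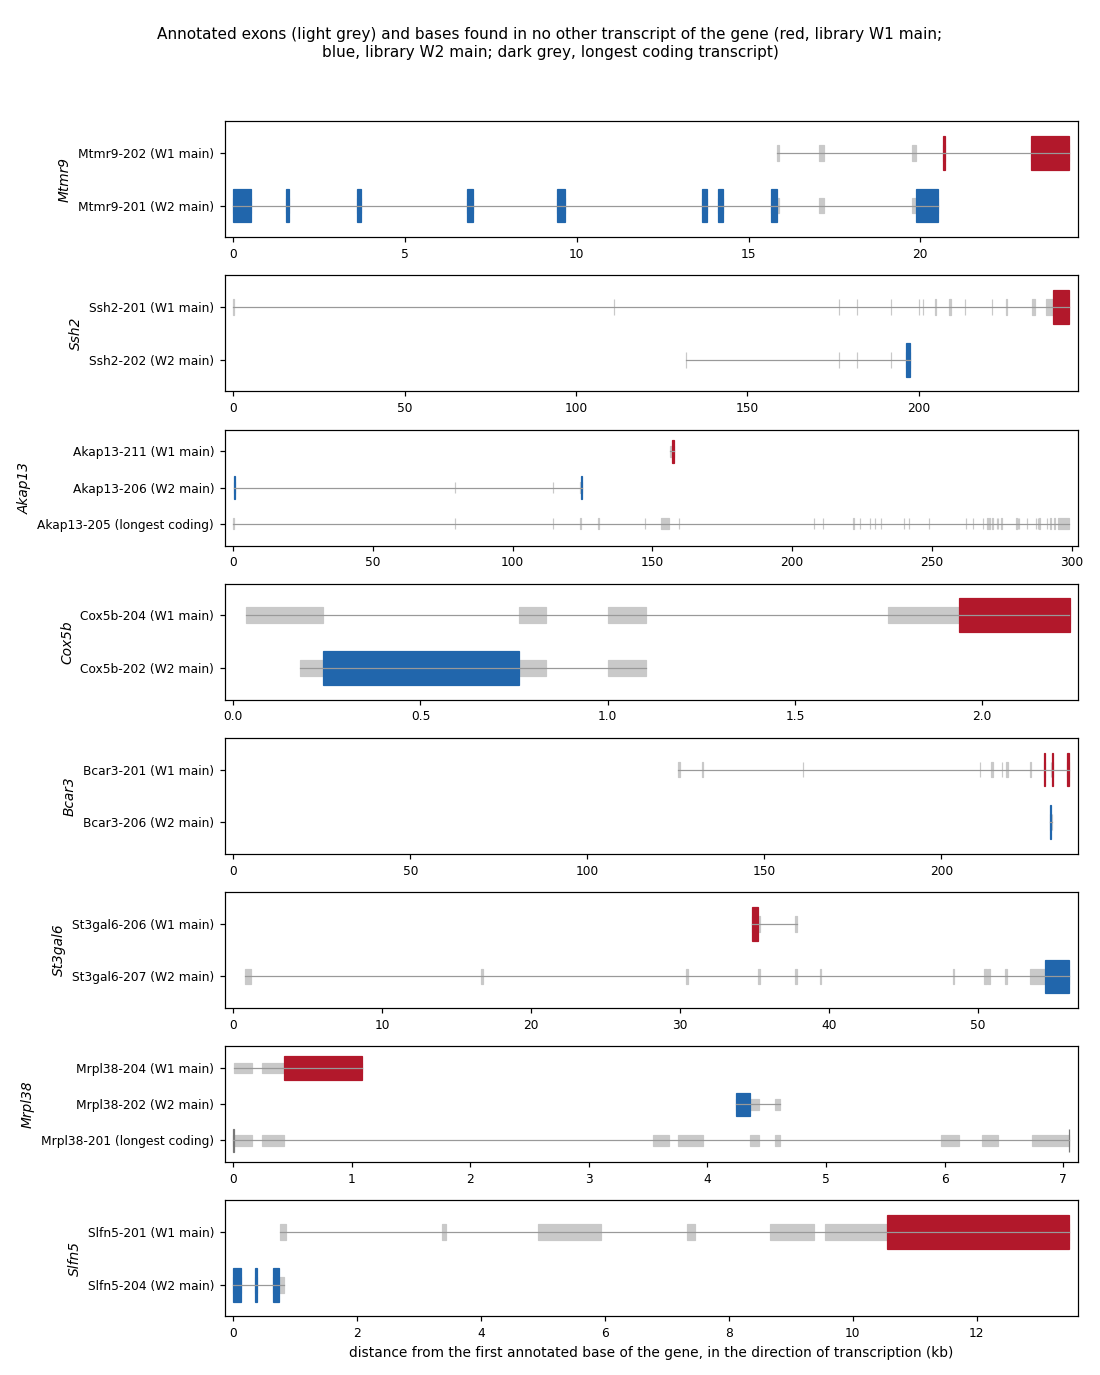
Exons of both main transcripts of the 8 genes described, and of the longest complete coding transcript where it is neither, along the distance in kb from the first annotated base. Coloured blocks are bases found in no other transcript of the gene, and in Akap13 and Mrpl38 the red and blue blocks lie in different introns of the gene.

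The members differed in how their transcripts part. The starts and the ends of the main transcripts lay more than 100 bases apart in all 9 genes. Of the 49 genes with different main transcripts under the share limit, the starts did so in 33 and the ends in 49. In the members, start distances ran from 144 bases in Cox5b to 155972 bases in Akap13, and end distances from 1131 bases in Cox5b to 46585 bases in Ssh2. In 3 members, among them Akap13 and Mrpl38, the spans did not overlap at all. In the other members the main transcripts shared between 69 exon bases (Slfn5) and 299 (Mtmr9). A retained intron or processed transcript was paired with a coding transcript in Ssh2, Bcar3, Cox5b, St3gal6 and Slfn5. In St3gal6 the coding transcript was the main one of library W2, and in the other 4 it was the main one of library W1.

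The gene sums that follow are also shaped by the rule, which asks for different main transcripts at 10 TPM or more in each library. Slfn5, Mtmr9, Bcar3 and Akap13 were 2-fold or more higher in W1 on the scale of log2(TPM + 1), 0 members were that much higher in W2, and 5 lay within 2-fold. Of all 12587 genes at 1 TPM or more in a library, 34.7% were 2-fold higher in W1 and 32.9% in W2. Of the 1556 genes with main transcripts at 10 TPM or more, 13% were higher in W1 and 21.7% in W2. Nothing is read from the members' count beside these shares, since the rule used the same TPM. The median log2 difference W1 over W2 was 0.47 over the members, -0.24 over these 1556 genes and -0.07 over the 12587. In Ssh2, Cox5b, St3gal6 and Mrpl38, which lay within 2-fold, the TPM sums differed less than the transcripts behind them, which the rule favours.

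The main transcripts had more own sequence than the other listed transcripts of these genes. The 9 genes have 71 listed transcripts, of which 24 had a read and 47 had none. Of 35 coding transcripts 7 had a read, and of the 15 with complete ends 6 did. The 18 main transcripts had 120 to 4748 own 50-mers (median 829.5), and the 53 others had 0 to 3172 (median 91). Of the 53 others, 6 had a read, and of the 7 with 500 or more own 50-mers, 5 did. The smaller read count of the main pair had a median of 32 over the members. It was 64 over the 49 genes under the share limit and 225 over the 1498 genes with the same main transcript. Members had a median of 6 listed transcripts, against 4 for those 1498 genes. The W1 and W2 main transcripts had median own 50-mers of 926 and 566 in the members and 629 and 1298 in the 49 genes. In the 1498 genes the median was higher, at 1431.5.

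**Figure D3:**
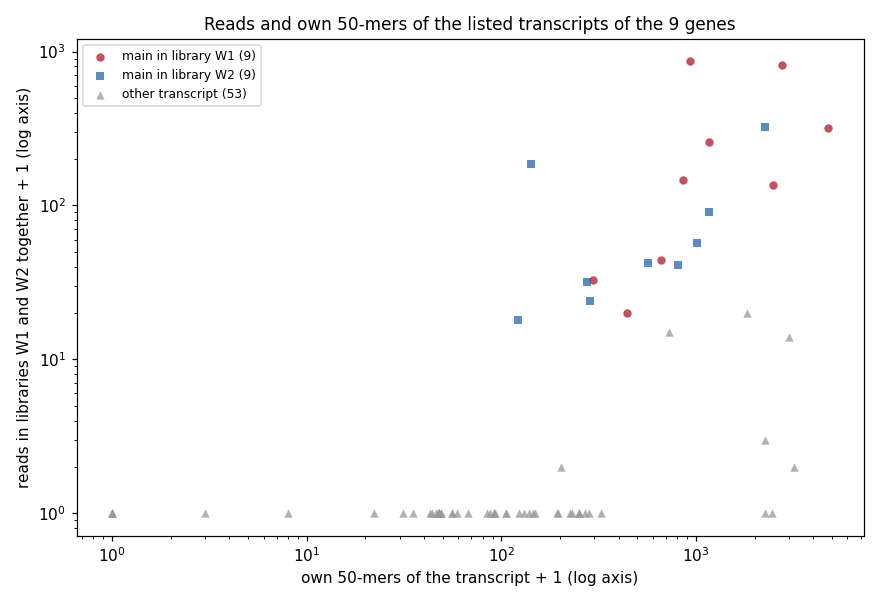
Reads of each of the 71 listed transcripts in libraries W1 and W2 together against its own 50-mers, both plus 1 and on log axes. Main transcripts of library W1 (red circles) and library W2 (blue squares) have at least 120 own 50-mers, and most other transcripts (grey triangles) lie at 0 reads.

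Just inside the share limit of 70% were St3gal6 (70.4% in W1), Akap13 (72.6% in W2) and Mtmr9. Just outside were Ipmk (69.96% in W1), Pcdh7 (69.95% in W1) and Cdc123 (68.4% in W1). Ipmk encodes an inositol kinase and Pcdh7 a protocadherin, and in both genes the main transcripts are coding in each library. Just inside the limit of 10 TPM were Akap13, Ssh2 and St3gal6, at 10.1, 10.2 and 10.4 TPM in the library where the main transcript was lower. Close outside it were Mia3 (9.89 TPM in W2) and Zfp951 (8.81 TPM in W2), each with a non-coding main transcript in W1 and a coding one in W2.

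**Figure D4:**
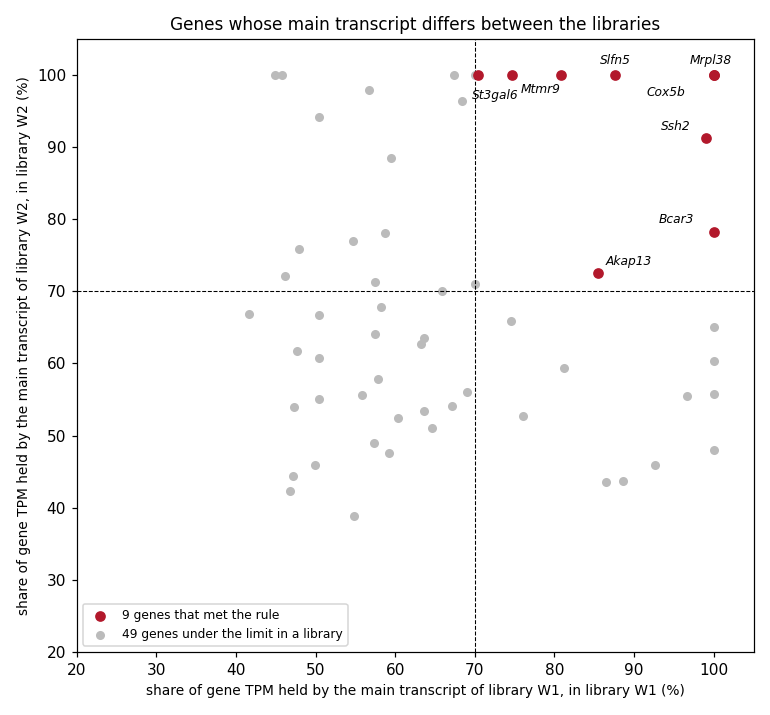
Share of the gene's TPM held by the main transcript of library W1 in W1 (horizontal axis, %) and by that of library W2 in W2 (vertical axis, %), for the 58 genes whose main transcript differs. The 9 genes that met the rule (red) lie right of and above the dashed lines at 70%, and Ipmk and Pcdh7 lie just left of the vertical line.

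Most compared factors of 3' ends and of nonsense-mediated decay, and 28 of the compared splicing factors, lay within 2-fold. Of 76 splicing factor names, 75 were annotated and 57 were at 1 TPM or more. Of these, 16 were higher in W1 by 2-fold or more, and 13 were higher in W2 (28.1% and 22.8%, beside 34.7% and 32.9% of all genes), with a median log2 difference W1 over W2 of 0.07. The following were chosen after their values were seen. Clk1, a kinase of SR splicing factors, stood at 72.1 TPM in W1 and 0.699 TPM in W2, and Rbm39 at 89.4 TPM in W1 and 13.5 TPM in W2. In the other direction, Sf3b1, a core part of the U2 particle, stood at 10.5 TPM in W1 and 65.8 TPM in W2, and Srsf7 at 202 and 626 TPM. The epithelial regulator Esrp2 stood at 1.96 TPM in W1 and 10.3 TPM in W2, and Esrp1 was listed at 0 in both. Such a 0 does not show that a gene was silent, since Prpf8, a core splicing protein that all cells use, was also listed at 0 in both libraries. Of 15 compared 3' end factors, 2 were higher in each library and 11 lay within 2-fold (median -0.04), and of 11 factors of nonsense-mediated decay, 2 were higher in W1, 3 were higher in W2 and 6 lay within 2-fold (median -0.41).

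Of 25 genes known for separate epithelial and mesenchymal isoforms, 19 were compared. By at least 2-fold, 10 were higher in W1 and 2 in W2 (52.6% and 10.5%, beside 34.7% and 32.9% of all genes), with a median log2 difference W1 over W2 of 1.01. In 8 of them the main transcripts reached 10 TPM in both libraries, and in Tpm1, a tropomyosin gene, these differed, beside 3.73% of all genes at that level. There the coding Tpm1-201 held 86.5% of the gene's TPM in W1, and the retained intron Tpm1-217 held 43.6% in W2. Among the splicing factors 11 genes reached that level, and in Srsf11 the main transcripts differed, both of them retained introns.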

How the data were processed

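The deposited tables hold TPM and FPKM values that the authors made for 137767 mouse transcripts in libraries W1 and W2. Bowtie 0.12.2 and the builds mm8 and GRCm38 appear, with no stated role, per the submitters' processing notes. How reads were counted, on which annotation and whether by strand: not given in the sources used here. Per the labels' protocols, the kit was KAPA Stranded RNA-Seq. By identifier, 137654 transcripts matched GENCODE M21 on GRCm38, and the 113 others were left out. Reads were recovered from the deposited FPKM, since the product with annotated length is a multiple of a constant in each library. Within 0.1 read, this was so for 98.42% of transcripts above 0 in library W1 and 98.05% in library W2. A transcript at 0 was given a floor of 3 reads, and its reads in the other library were taken as exact. Own 50-mers were searched on both strands of all matched transcripts. Gene sums were compared as log2(TPM + 1) for genes at 1 TPM or more. The longest coding transcript is the complete one with the most coding bases. Members are named by a rule that also names genes at the limits, and 1 member and 1 gene at a limit are not reported here. Members and lists were chosen with earlier results of these data known. With 1 library on each side and no class in the labels, no test was made. The recovery of reads and the rule were run on simulated counts drawn for each transcript, which cannot test how reads were given to transcripts. Tools were matplotlib 3.10.9, pandas 2.3.3, scipy 1.17.1 and numpy 2.4.6 under Python 3.11.15.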

Additional observations from a re-analysis of the deposited data

How the results depend on the processing

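The number of genes that met the rule moved with its limits. It was 19 (1.22% of those at the TPM minimum) with a share limit of 60%, 5 (0.321%) with 80%, 3 (0.193%) with 90% and 2 (0.129%, Cox5b and Mrpl38) with 100%. With a minimum of 1 TPM it was 220 (5.47%), with 5 TPM 36 (1.53%), with 20 TPM 1 (0.111%, Mtmr9) and with 50 TPM 0 (0%). With at least 50 reads on each main transcript it was 3 (0.206%, among them Mtmr9 and Ssh2), and with coding transcripts alone 3 (0.338%), of which 1, Mtmr9, was shared. It stayed within 1.5 times of 9 with at least 20 reads (6), shares from reads (7, of which 5 shared, without Mtmr9, Ssh2, Bcar3 and St3gal6), shares per own 50-mer (13, of which 8 shared, without St3gal6), transcripts with 50 or more own 50-mers (9) and FPKM in place of TPM (6). The counts of members higher in each library did not move with pseudocounts of 0.1 or 5. With a pseudocount of 5, 7 splicing factors were higher in library W2, and 0 factors of 3' ends and 0 of nonsense-mediated decay were higher in library W1. The cause of these shifts was not tested. Depth limits the scarcer main transcripts, at 16 to 19 reads in Slfn5, Mrpl38 and St3gal6. No paired analysis was possible because each library stands alone and no test was made. For the same reason no replicate could be left out.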

Other observations

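In 12 of the 49 genes under the share limit, the main transcripts of libraries W1 and W2 both code for protein and differ in coding sequence. In Cflar, which encodes a regulator of the cell death protease caspase 8, Cflar-204 held 54.7% of the gene's TPM in library W1 (331 reads) and Cflar-205 held 76.95% in library W2 (218 reads). In Gna13, which encodes a G protein subunit, Gna13-202 held 63.7% in library W1 (261 reads) and Gna13-201 held 53.4% in library W2 (850 reads). In Ankrd11, a chromatin regulator, Ankrd11-207 held 59.4% in library W1 (181 reads) and Ankrd11-205 held 88.4% in library W2 (862 reads). These 3 genes were chosen after their values were seen.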
